A study of Mus musculus with 7 samples.

Results

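Ucp2 and Odz4 are 2 of the 29955 gene rows in a table of RNA sequencing levels from mouse embryonic fibroblasts, and they were taken by gene symbol. They had been picked from these same values because they were low in the cells without Mdm2. Their own levels are therefore given as a description with no test. The table holds 7 libraries from C57BL/6 fibroblasts, all without p53. The p53Mdm2 KO group (2 libraries) also lacks Mdm2. The p53KO Mdm2(C462A) KI group (2 libraries) carries a knock-in of the C462A substitution in Mdm2. The p53 KO group (3 libraries) has no further change given in the labels. The Mdm2 protein is known as a ubiquitin ligase acting on p53, and C462A changes a residue of the RING domain that carries out the ligase reaction. By its title, the study concerns p53-independent actions of Mdm2 that involve the Polycomb repressor complex PRC2. Neither the structure of the knockout alleles nor the driver of any deletion is described in the labels. Nothing says that replicates came from separate embryos or cultures, so the p-values reflect only how much these particular libraries vary, which may be technical.

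Ucp2 encodes a carrier of the inner mitochondrial membrane. It is named for its likeness to the uncoupling protein of brown fat, and the human protein has been shown to export aspartate, malate and oxaloacetate from mitochondria in exchange for phosphate. It is known for high levels in macrophages and other immune cells. Odz4, now called Tenm4, encodes teneurin-4, a large transmembrane protein of the cell surface whose family binds latrophilin receptors on neighbouring cells. In mice it is needed for gastrulation and for the myelination of axons by oligodendrocytes, and one of its older names, Doc4, stands for downstream of Chop.

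Levels are normalized reads recovered from the deposited log2-like values. Library totals ran from 28468283 to 41453822 reads. One library of the p53 KO group and one of the p53KO Mdm2(C462A) KI group stood apart from the others. In p53 KO replicate 1, 454 tested genes were more than 4-fold above or below every other library. Such genes numbered 96 in p53KO Mdm2(C462A) KI replicate 2, 53 in p53Mdm2 KO replicate 2 and at most 4 in each other library. All 12 fibroblast markers were read in all 7 libraries, but p53 KO replicate 1 had 99.1 normalized reads of Thy1 and 3456 of Col1a2, against at least 6592 and 175050 in every other library. The same library was the highest of the 7 for the fibroblast markers Col3a1, Postn, Vim and S100a4, with 166680, 120480, 155420 and 37554 normalized reads. Of the 12 fibroblast markers, 8 were lower and 4 higher in p53Mdm2 KO than in p53 KO (51.8% of all genes were lower), with a median log2 difference of -0.42 against -0.01 over all genes tested. By limma, 0 of the 12 passed the adjusted threshold of 0.05, as in all genes (0%). The p53Mdm2 KO replicate 2 library, in which Ucp2 and Odz4 were lowest, was also the lowest for Col1a1, Col3a1, Pdgfra, Pdgfrb, Dcn, Lum and Postn, with 12594 normalized reads of Postn against at least 37190 in every other library. Col1a2, Thy1, Fn1, Vim and S100a4 were not lowest in that library. Its Vim (151270) and S100a4 (17241) were above those of every library but p53 KO replicate 1. The part of these marker differences in the levels of Ucp2 and Odz4 was not tested. Mdm2 still had reads in the labelled knockout, with 1574.5 and 2334 in p53Mdm2 KO, 2033 and 2887 in p53KO Mdm2(C462A) KI, and 1746, 1994 and 1914.5 in p53 KO. The labels do not say which stretch of Mdm2 is deleted, so these levels check no label.

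Ucp2 was read at 229 and 33.5 normalized reads in p53Mdm2 KO replicates 1 and 2. It had 1757 and 1356.5 in p53KO Mdm2(C462A) KI, and 1563, 3521 and 2797 in p53 KO replicates 1, 2 and 3. Both p53Mdm2 KO libraries lay far below the other 5, while the p53KO Mdm2(C462A) KI and p53 KO ranges overlapped. The p53Mdm2 KO mean was 131 ± 138 (SD, n = 2), against 1557 ± 283 in p53KO Mdm2(C462A) KI (SD, n = 2) and 2627 ± 990.0 in p53 KO (SD, n = 3). On the deposited log2-like scale p53Mdm2 KO differed from p53 KO by -4.46 (SE 0.68) and from p53KO Mdm2(C462A) KI by -3.78 (SE 0.74). The difference of p53KO Mdm2(C462A) KI from p53 KO was -0.68 (SE 0.68). These SEs, and those of Odz4 below, come from limma, which shares information on spread over genes. They describe the chosen genes and test nothing. Without p53 KO replicate 1 the differences from p53 KO were -4.79 in p53Mdm2 KO and -1.01 in p53KO Mdm2(C462A) KI. The lowest library, p53Mdm2 KO replicate 2, rested on 26 whole reads, with an exact Poisson 95% interval of 17.0 to 38.1 reads that covers counting error only. The 2 p53Mdm2 KO libraries differed from each other 6.85-fold, well beyond counting error, and even the higher of them was 5.92-fold below the lowest of the other 5.

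Odz4 was also lowest in p53Mdm2 KO, with a much narrower margin. It had 309.9 and 74.7 normalized reads in p53Mdm2 KO replicates 1 and 2, 1153 and 1729.5 in p53KO Mdm2(C462A) KI, and 399, 862 and 916 in p53 KO replicates 1, 2 and 3. The 3 groups did not overlap, in the order p53Mdm2 KO, p53 KO, p53KO Mdm2(C462A) KI, but p53Mdm2 KO replicate 1 and p53 KO replicate 1 stood only 1.29-fold apart. The means were 192 ± 166 in p53Mdm2 KO (SD, n = 2), 1441 ± 408 in p53KO Mdm2(C462A) KI (SD, n = 2) and 726 ± 284 in p53 KO (SD, n = 3). On the deposited scale p53Mdm2 KO differed from p53 KO by -1.99 (SE 0.61) and from p53KO Mdm2(C462A) KI by -3.02 (SE 0.67). The difference of p53KO Mdm2(C462A) KI from p53 KO was 1.03 (SE 0.61). Without p53 KO replicate 1 these differences from p53 KO were -2.37 and 0.66, and leaving out p53KO Mdm2(C462A) KI replicate 2 as well brought the second to 0.37. Of all genes tested, 14.1% had both p53KO Mdm2(C462A) KI libraries above all p53 KO libraries, so that order of Odz4 is common in these data. In whole reads Odz4 rested on 334 and 58 in p53Mdm2 KO and on at least 439 in every other library. In bulk RNA, fewer cells with a transcript and less transcript per cell cannot be told apart.

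**Figure D1:**
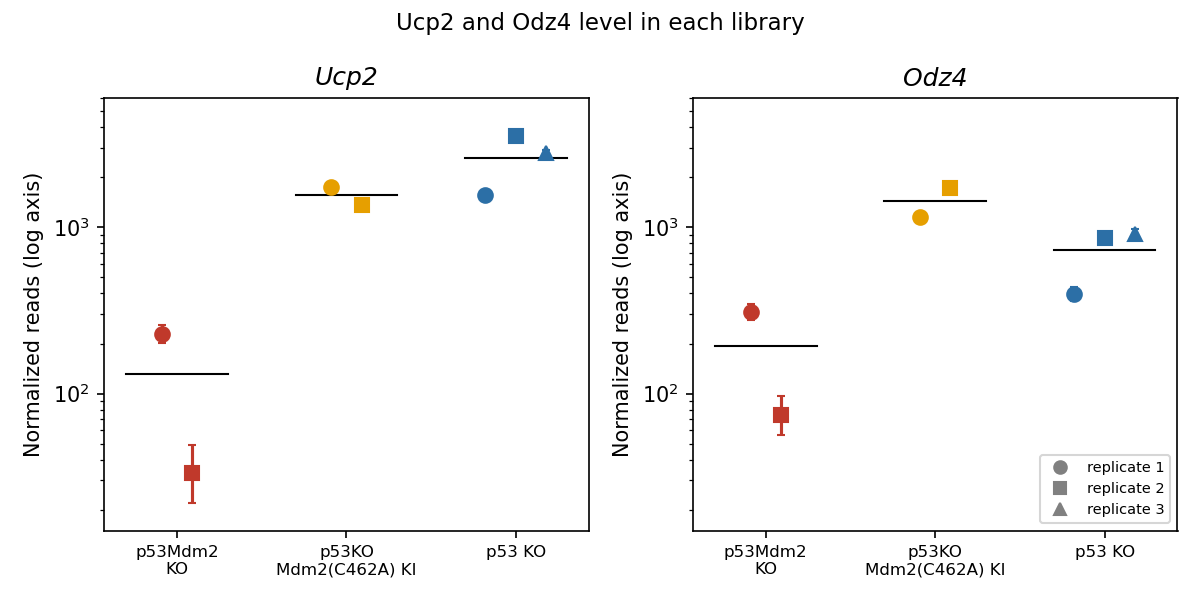
Normalized reads (log axis) of Ucp2 and Odz4 in each library, by group. Points are libraries with exact Poisson 95% intervals for counting error, marker shapes are replicate numbers and black lines are group means. Ucp2 is 229 and 33.5 in p53Mdm2 KO and at least 1356.5 elsewhere, whereas Odz4 in p53Mdm2 KO replicate 1 (309.9) lies close to p53 KO replicate 1 (399).

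Ucp2 and Odz4 had their low libraries in common but not the order of the others. Across all 7 libraries their deposited values had a Pearson r of 0.86 and a Spearman rank correlation of 0.50. Among the 5 libraries other than p53Mdm2 KO the Pearson r was -0.13 and the rank correlation was -0.40. Among those 5, Ucp2 was highest in p53 KO replicate 2 and Odz4 in p53KO Mdm2(C462A) KI replicate 2. These values come from the libraries that the genes were chosen on and describe them only.

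Both p53Mdm2 KO libraries lay below the other 5 in 390 of 16900 genes tested, which is 2.31%, and above them in 407, or 2.41%. Being lowest in p53Mdm2 KO was thus not rare, and genes were ordered by the size of the gap. The gap is the lowest of the other 5 libraries minus the higher p53Mdm2 KO library on the deposited scale. Ucp2 had the widest gap of all genes tested, 2.47, and was at place 2 without p53 KO replicate 1. Only 1 other gene had a gap of at least 1 (2 of 16900, 0.0118%), namely Gbp1, an interferon-induced GTPase gene with close relatives whose reads may be shared, at 2.40. Gbp1 had 11.1 and 2.58 normalized reads in p53Mdm2 KO, the second of these under the 3.86 that a count of 0 would allow in that library. It had 489 and 213 in p53KO Mdm2(C462A) KI and 127, 200 and 394 in p53 KO. The gap of Odz4 was 0.35, at place 21. It widened to 1.42, at place 3, without p53 KO replicate 1, when 733 genes (4.34%) had the pattern. On log2 of normalized reads plus 1, Odz4 was at place 39, Ucp2 was at place 2, and 5 genes had a gap of at least 1. Both genes were picked for this pattern in these values, so their places describe the choice and test nothing. Being low only without Mdm2 describes Ucp2 in all 7 libraries. For Odz4, the p53 KO replicate 1 library was nearly as low as p53Mdm2 KO replicate 1.

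**Figure D2:**
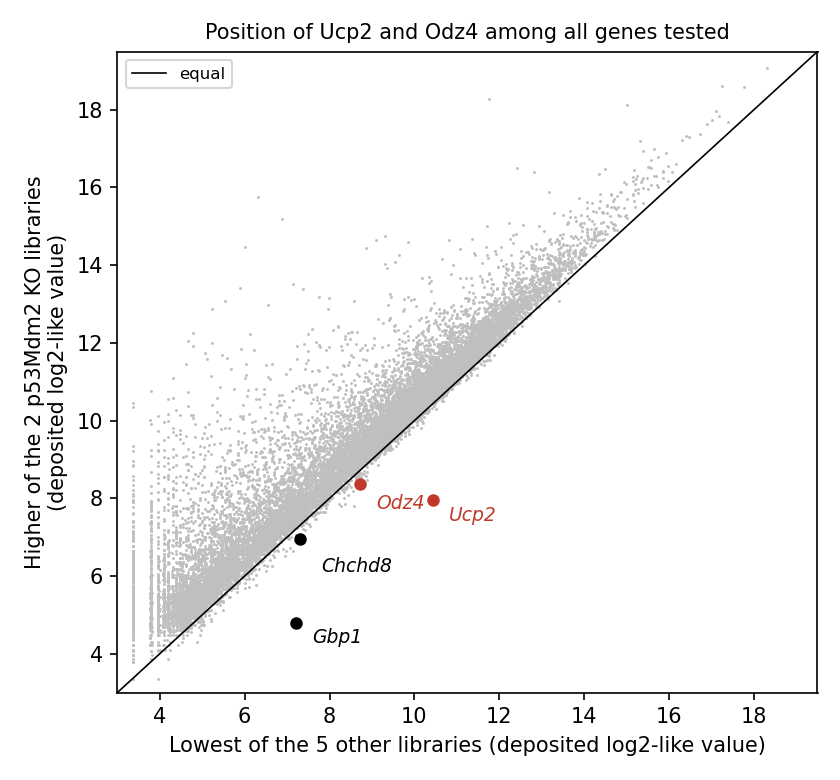
All 16900 genes tested, by the lowest of the 5 other libraries (horizontal) and the higher of the p53Mdm2 KO libraries (vertical), both as deposited log2-like values. Genes under the line have both p53Mdm2 KO libraries below the other 5. Ucp2 and Gbp1 lie 2.47 and 2.40 below it, and Odz4 and Chchd8 0.35 below it.

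After Ucp2 and Gbp1, the next widest gaps among named genes with a mean of at least 100 normalized reads were those of Arhgap20 (0.78), Thbs4 (0.56), a thrombospondin, and Notch3 (0.50), a Notch receptor. The angiotensin receptor gene Agtr1a, the chromatin remodeller gene Smarca1 and the nuclear receptor gene Rora followed, at 0.50, 0.46 and 0.43. Thbs4 had 4.64 and 2.58 normalized reads in p53Mdm2 KO, 13.0 and 12.3 in p53KO Mdm2(C462A) KI, and 3545, 29.7 and 87.4 in p53 KO, where replicate 1 was far above the others.

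Ucp2 and Odz4 lie on the same chromosome, mouse chromosome 7, a property that played no part in choosing them. In RefSeq (assembly GRCm38.p6) 52 protein-coding genes lie between them. The submitters' processing notes name build mm9, so only the order of genes is used here. Of these 52 genes, 39 had enough reads to be tested. None had both p53Mdm2 KO libraries below the other 5 (0 of 39, against 2.31% of all genes). In p53Mdm2 KO against p53 KO, 12 of the 39 were higher and 27 lower (51.8% of all genes were lower). Their median difference was -0.15 on the log2 scale, against -0.01 over all genes tested, and was -0.06 without p53Mdm2 KO replicate 2 and -0.09 without p53 KO replicate 3. By limma, 0 passed the adjusted threshold of 0.05 (0% of all genes did), and 1 was higher and 0 lower at an unadjusted p under 0.05, where 1.51% of all genes were higher and 1.49% lower. Against p53KO Mdm2(C462A) KI, 20 were higher and 19 lower (51.7% of all genes were lower), with a median of 0.01, and 0 passed the adjusted threshold, as in all genes (0%). At an unadjusted p under 0.05, 1 was higher and 0 lower in that comparison, beside 1.78% and 1.2% of all genes. Between p53KO Mdm2(C462A) KI and p53 KO, 19 were higher and 20 lower (48.8% of all genes were lower), with 3 higher and 2 lower at an unadjusted p under 0.05, beside 4.98% and 5.44% of all genes, and 0 past the adjusted threshold.

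The largest differences from p53 KO among the genes between did not pass the test, which 0% of all genes passed. Mogat2, an acyltransferase gene of triglyceride synthesis, had 215 and 745 normalized reads in p53Mdm2 KO, 126 and 161 in p53KO Mdm2(C462A) KI, and 3.64, 307 and 161 in p53 KO. Its log2 difference from p53 KO was 2.04 (limma adjusted p = 0.99997), and p53 KO replicate 1 was the low library. Arrb1, which encodes a beta-arrestin, differed by -1.06 and the N-glycosylation gene Alg8 by 0.83. Gdpd5, a phosphodiesterase gene, differed by -0.68. Next to Odz4, Nars2, the mitochondrial asparaginyl-tRNA synthetase gene, differed by -0.14, the signalling adaptor gene Gab2 by 0.48, the peptidase gene Prcp by -0.31 and Fam181b by -0.46, all with a limma adjusted p = 0.99997.

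One gene beside Ucp2 was lower in both p53Mdm2 KO libraries than in the other 5. It is Chchd8, now called Coa4, which encodes a factor of cytochrome oxidase assembly and is the second protein-coding gene past Ucp2 in RefSeq. It was 1 of 17 tested flanking genes with that pattern, against 2.31% of all genes. Chchd8 had 105 and 51.5 normalized reads in p53Mdm2 KO, 173 and 138 in p53KO Mdm2(C462A) KI, and 154, 168 and 179 in p53 KO. Replicate 2 was the lower p53Mdm2 KO library, as for Ucp2, but the size of the difference was smaller, at -0.99 from p53 KO (SE 0.31) and -0.90 from p53KO Mdm2(C462A) KI (SE 0.34). These were -1.40 and -1.31 without p53Mdm2 KO replicate 1, and -0.58 and -0.49 without p53Mdm2 KO replicate 2. Neither passed limma's test over all genes (adjusted p = 0.99997 and 0.99978). The gene between Ucp2 and Chchd8, Dnajb13, had at most 5.29 normalized reads in any library. On the other side of Ucp2, its relative Ucp3 had at most 5.45. The nearest other tested genes differed little, with -0.31 for the centriole gene C2cd3, -0.05 for the phosphatase methylesterase gene Ppme1 and -0.08 for the mitochondrial ribosome gene Mrpl48 (limma adjusted p = 0.99997 for each).

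**Figure D3:**
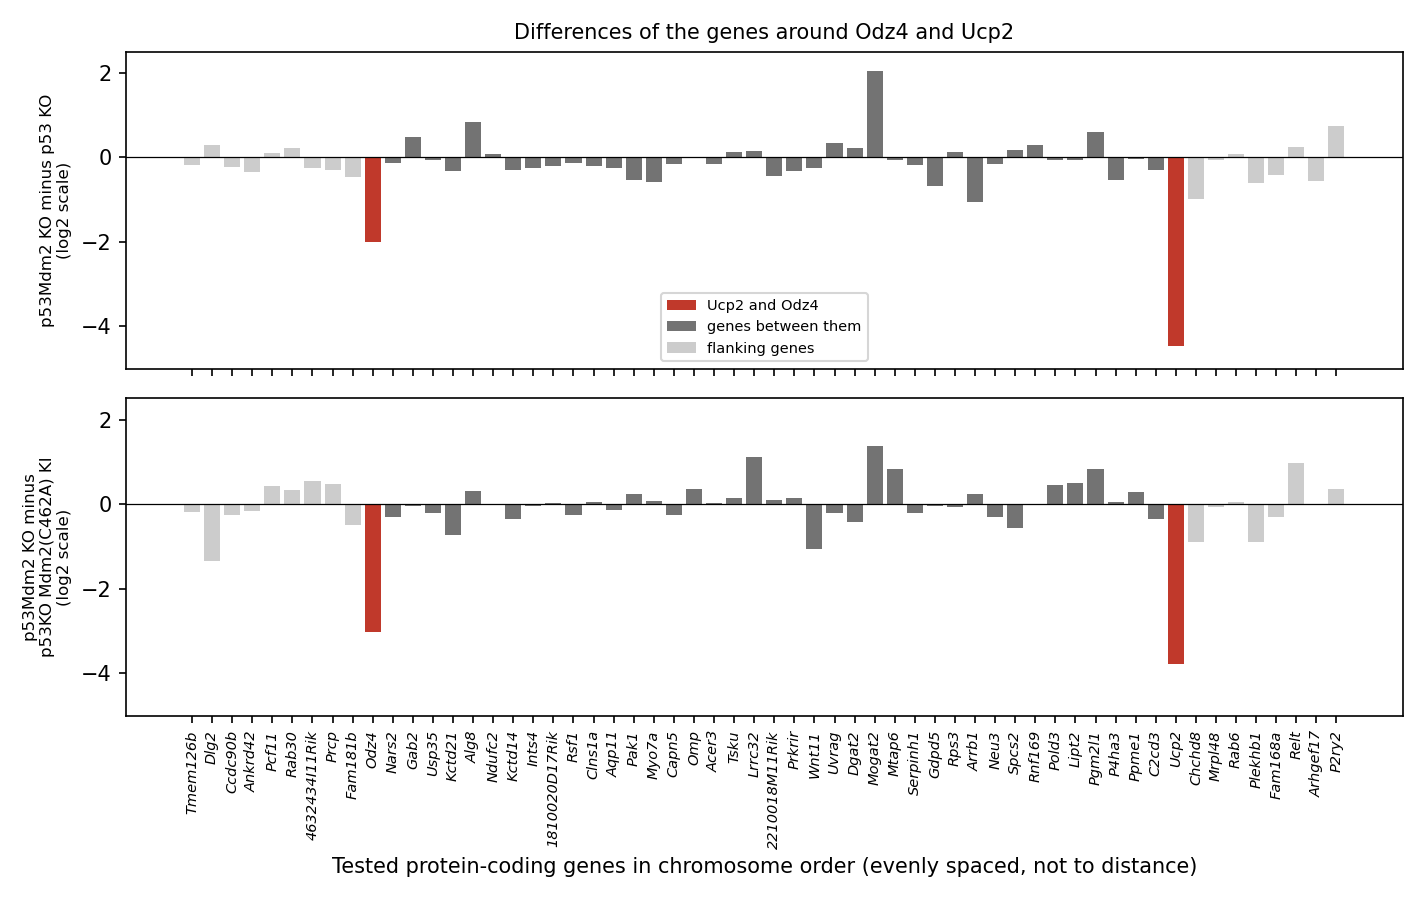
Log2 differences of p53Mdm2 KO from p53 KO (top) and from p53KO Mdm2(C462A) KI (bottom) for tested protein-coding genes in chromosome order, evenly spaced. Red bars are Odz4 (-1.99 and -3.02) and Ucp2 (-4.46 and -3.78), dark bars the 39 genes between them and light bars the 17 flanking genes.

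In GENCODE M21, Ucp2 overlaps 1 gene, Dnajb13, at its end and on the other strand, and Tenm4 spans or overlaps 11 annotated genes, 9 of them on the other strand. Whether reads were counted by strand is not stated, so reads of such overlapping genes cannot be told apart. Dnajb13 was nearly unread, as given above. Of the 11 in Tenm4, only Mir708 has a row under its own name, with at most 0.88 normalized reads.

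The promoters of Ucp2, Odz4 and Chchd8 are shown because these genes were low together in p53Mdm2 KO. Each is the 250 bases before a RefSeq transcript start on chromosome 7 of GRCm38.p6, plus strand, written 5′ to 3′ with CG dinucleotides in capitals. The Ucp2 window is chr7:100493108-100493357 and the Chchd8 window chr7:100536850-100537099. Odz4 has windows at both of its listed starts, chr7:96170994-96171243 and chr7:96211421-96211670.
Ucp2: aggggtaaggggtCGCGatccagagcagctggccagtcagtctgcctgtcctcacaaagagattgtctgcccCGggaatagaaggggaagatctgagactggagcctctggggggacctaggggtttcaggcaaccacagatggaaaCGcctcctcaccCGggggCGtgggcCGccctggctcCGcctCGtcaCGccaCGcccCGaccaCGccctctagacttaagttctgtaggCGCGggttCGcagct
Chchd8: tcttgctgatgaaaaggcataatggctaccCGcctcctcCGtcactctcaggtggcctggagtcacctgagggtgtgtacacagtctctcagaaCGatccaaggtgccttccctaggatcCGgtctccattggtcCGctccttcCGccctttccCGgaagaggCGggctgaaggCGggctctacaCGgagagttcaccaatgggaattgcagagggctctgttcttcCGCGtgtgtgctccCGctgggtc
Odz4, first start: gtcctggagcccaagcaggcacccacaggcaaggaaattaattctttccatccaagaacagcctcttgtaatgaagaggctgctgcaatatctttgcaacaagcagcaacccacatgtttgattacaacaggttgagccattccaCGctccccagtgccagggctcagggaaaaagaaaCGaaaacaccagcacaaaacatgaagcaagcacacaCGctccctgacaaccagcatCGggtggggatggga
Odz4, second start: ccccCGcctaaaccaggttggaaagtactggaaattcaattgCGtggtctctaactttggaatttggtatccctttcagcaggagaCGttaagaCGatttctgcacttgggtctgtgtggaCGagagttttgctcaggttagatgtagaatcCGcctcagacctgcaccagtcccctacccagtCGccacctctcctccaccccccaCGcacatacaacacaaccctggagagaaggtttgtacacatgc

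The windows differ in base composition. That of Ucp2 holds 16 CG dinucleotides at 63.6% G and C, and that of Chchd8 holds 13 at 59.2%. The Odz4 windows hold 4 and 8, at 50.8% and 51.6%, beside a median of 6 over 32851 RefSeq promoter windows of the same length. Motifs were searched on both strands, and matches of different motifs may share bases. The GC box GGGCGG has 1 match in the Ucp2 and 1 in the Chchd8 window, and 0 matches in either Odz4 window, while 32.7% of all windows hold it. The E-box CANNTG has 2 matches in Ucp2, 2 in Chchd8, and 1 and 3 in the Odz4 windows, and 66.2% of all windows hold it. CCAAT has 2 matches in Chchd8 and 0 in the others (33.85% of all windows), and TATAAA has 0 in all 4 (12.4%). Such matches describe the letters of a window only.

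None of the relatives of Ucp2 in the uncoupling protein family passed the test, which 0% of all genes passed. Ucp1, the brown fat protein gene, had at most 3.86 normalized reads and Ucp3, known from muscle, at most 5.45, too few to test. Slc25a27, a brain uncoupling protein gene also called Ucp4, had 129 and 126 in p53Mdm2 KO, 165 and 153 in p53KO Mdm2(C462A) KI, and 99.98, 122.5 and 99.2 in p53 KO. Slc25a14, or Ucp5, had 262 and 197 in p53Mdm2 KO, 250 and 225 in p53KO Mdm2(C462A) KI, and 253, 174 and 173 in p53 KO. Slc25a30, a kidney mitochondrial carrier gene, had 376 and 516 in p53Mdm2 KO, 562 and 900 in p53KO Mdm2(C462A) KI, and 693, 712 and 506 in p53 KO. Of these 3 tested relatives 0 passed limma's adjusted threshold in any comparison, with differences of p53Mdm2 KO from p53 KO of 0.22, 0.19 and -0.50 (adjusted p = 0.99997 for each).

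Genes that handle the same metabolites, enzymes and carriers of aspartate, malate and glutamine, were split evenly. Of 16 tested, 8 were higher and 8 lower in p53Mdm2 KO than in p53 KO (median 0.02 on the log2 scale), with 0 past the adjusted threshold (0% of all genes). Slc1a5, the glutamine importer gene, had 5563 and 3041 normalized reads in p53Mdm2 KO, 4922.5 and 5115 in p53KO Mdm2(C462A) KI, and 2696, 936 and 1958 in p53 KO, with a difference of 1.26 from p53 KO (adjusted p = 0.99997). The dicarboxylate carrier gene Slc25a10 differed by -0.53, the malate dehydrogenase gene Mdh2 by 0.04 and the glutamate dehydrogenase gene Glud1 by 0.00. The 12 listed antioxidant genes, not all of them for mitochondrial proteins, were 6 higher and 6 lower, with a median of -0.02 and 0 past the threshold. The superoxide dismutase genes Sod1 and Sod2 differed by 0.30 and 0.06. The peroxidase genes Gpx1 and Gpx4 differed by -0.07 and -0.10.

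Transcriptional regulators known for Ucp2 went in both directions. Of 13 tested, 5 were higher and 8 lower in p53Mdm2 KO than in p53 KO (median -0.10). Against p53KO Mdm2(C462A) KI, 4 were higher and 9 lower (median -0.21). In both comparisons 0 passed the adjusted threshold, as in all genes (0%). At an unadjusted p under 0.05, 2 were lower than in p53KO Mdm2(C462A) KI, beside 1.2% of all genes. They are the coactivator gene Ppargc1a and the forkhead gene Foxo3. Ppargc1a had 13.9 and 14.2 normalized reads in p53Mdm2 KO, 45.1 and 115 in p53KO Mdm2(C462A) KI, and 25.4, 4.64 and 12.9 in p53 KO. The p53KO Mdm2(C462A) KI libraries were the high ones there. Foxo3 differed from p53KO Mdm2(C462A) KI by -0.85 (limma adjusted p = 0.99978) and from p53 KO by -0.41. The lipogenic factor gene Srebf1 and the TGF-beta mediator gene Smad4 differed from p53 KO by 0.01 and -0.10. Pparg, the fat cell regulator, was named after its values were seen. It had 99.3 and 214 in p53Mdm2 KO, 67.2 and 264 in p53KO Mdm2(C462A) KI, and 3048.5, 103 and 87.4 in p53 KO, where replicate 1 alone was high.

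Among teneurins, Odz1 had at most 1.86 and Odz2 at most 11.9 normalized reads in any library, and neither was tested. Odz3 had 4988 and 2644.5 in p53Mdm2 KO, 6257 and 4826 in p53KO Mdm2(C462A) KI, and 351, 6355 and 11265 in p53 KO. Its low library was p53 KO replicate 1, not a p53Mdm2 KO library, and its differences of p53Mdm2 KO were 0.29 from p53 KO and -0.59 from p53KO Mdm2(C462A) KI (limma adjusted p = 0.99997 and 0.99978).

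A list of teneurin partners that also takes in Unc5 netrin receptors was mostly below p53 KO in the p53Mdm2 KO cells, without a call. Among the Unc5 genes, Unc5a and Unc5b were higher and Unc5c and Unc5d lower. Of 12 tested, 3 were higher and 9 lower (51.8% of all genes were lower), with a median of -0.40 beside -0.01 for all genes. The adjusted threshold was passed by 0 of them, as in all genes (0%). The median was -0.27 without p53Mdm2 KO replicate 1 and -0.16 without p53Mdm2 KO replicate 2. The same 3 to 9 split held for p53KO Mdm2(C462A) KI against p53 KO, with which it shares the p53 KO libraries (median -0.56, and -0.35 without p53KO Mdm2(C462A) KI replicate 2). The latrophilin gene Lphn1 had 3031 and 2986 normalized reads in p53Mdm2 KO, 3426 and 2324 in p53KO Mdm2(C462A) KI, and 6739, 5413 and 4814 in p53 KO. Its difference from p53 KO was -0.89 in p53Mdm2 KO and -0.98 in p53KO Mdm2(C462A) KI (limma adjusted p = 0.99997 and 0.43671), so both Mdm2 genotypes lay below p53 KO. Unc5a, a netrin receptor gene whose family also binds Flrt proteins, had 60.3 and 77.2 in p53Mdm2 KO, 123.3 and 36.2 in p53KO Mdm2(C462A) KI, and 30.0, 8.35 and 4.31 in p53 KO. Its difference of p53Mdm2 KO from p53 KO was 1.62 (limma adjusted p = 0.99997). Unc5b, another netrin receptor gene, and the dystroglycan gene Dag1 differed from p53 KO by 0.04 and -0.24.

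Ddit3 encodes Chop, after which Odz4 received its older name, and it was looked up after its values were seen. It had 3329 and 1530 normalized reads in p53Mdm2 KO, 3686 and 21317 in p53KO Mdm2(C462A) KI, and 1052, 1741 and 1348 in p53 KO. The library with the highest Ddit3 level, p53KO Mdm2(C462A) KI replicate 2, was also that with the highest Odz4 level. In p53Mdm2 KO, Ddit3 differed from p53 KO by 0.73 (SE 0.74, limma adjusted p = 0.99997). From p53KO Mdm2(C462A) KI it differed by -1.96 (SE 0.81, limma adjusted p = 0.99978), with replicate 2 of that group the high library. The part of Ddit3 in the level of Odz4 was not tested.

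Markers of other cell types varied between libraries, and some had as many reads as Ucp2 or Odz4. The 11 macrophage and blood markers with a row summed to 1634 and 476 normalized reads in p53Mdm2 KO, to 1508.5 and 426 in p53KO Mdm2(C462A) KI, and to 538, 578 and 3325 in p53 KO. Emr1, Tyrobp, Cd52 and Laptm5 were at 0 in p53Mdm2 KO replicate 2, p53KO Mdm2(C462A) KI replicate 2 and p53 KO replicate 1. Other markers of the list were read in these libraries. In the same order, Itgam had 254, 243 and 274 normalized reads there, and Cd68 had 77.25, 57.3 and 111. Ucp2 had 1356.5 in p53KO Mdm2(C462A) KI replicate 2 and 1563 in p53 KO replicate 1. The p53Mdm2 KO replicate 1 library had 850 normalized reads of the lysozyme gene Lyz2 and 229 of Ucp2. Neural and glial markers (11 with a row) summed to 1601 and 1231 in p53Mdm2 KO, 1258 and 2670 in p53KO Mdm2(C462A) KI, and 440, 1676 and 1185 in p53 KO. The oligodendrocyte factor gene Olig2 was at 0 in all 7 libraries, and the highest sum, with 1810 normalized reads of the myelin gene Mbp, belonged to the library with the highest Odz4. Epithelial and endothelial markers summed to 3142.5 and 3031 in p53Mdm2 KO, 839 and 2995 in p53KO Mdm2(C462A) KI, and 859, 1646 and 1048 in p53 KO. Krt19, a keratin gene, was highest among these in p53Mdm2 KO, at 1240 and 1911, but it also had 1774 in p53KO Mdm2(C462A) KI replicate 2. In p53Mdm2 KO replicates 1 and 2, Kdr had 693 and 994. The other epithelial markers were lower in replicate 2, with 662 and 39.9 for Krt18, 327 and 9.01 for Krt8, 61.2 and 10.3 for Cdh1, and 7.42 and 5.15 for Epcam. Muscle markers summed to 2011.5 and 339 in p53Mdm2 KO, 281 and 2436 in p53KO Mdm2(C462A) KI, and 175, 1026 and 1079 in p53 KO. The part of other cell types in the levels of Ucp2 and Odz4 was not tested.

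**Figure D4:**
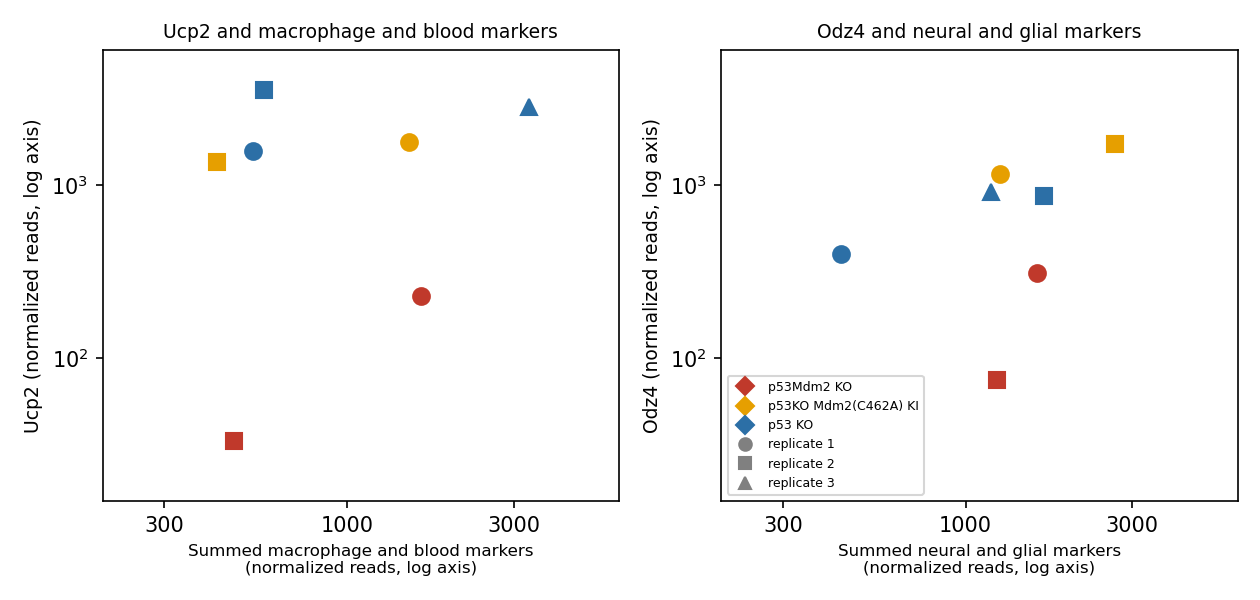
Normalized reads of Ucp2 against the summed macrophage and blood markers (left) and of Odz4 against the summed neural and glial markers (right), all axes log, 1 point per library. Ucp2 is 33.5, 1356.5, 1563 and 3521 in the 4 libraries whose marker sums lie between 426 and 578.

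Most genes whose deposited values followed Ucp2 or Odz4 closely over the 7 libraries differed between groups by much less. Of 12858 other genes with a mean of at least 100 normalized reads, the closest to Ucp2 was its chromosomal neighbour Chchd8, with a Pearson r of 0.97 over 7 libraries. It kept an r of 0.71 over the 5 libraries without the p53Mdm2 KO ones. Cog7, a Golgi gene also on chromosome 7, followed at 0.96, then the endoplasmic reticulum lectin gene Mlec (0.94), Invs (0.93), the receptor phosphatase gene Ptprs (0.93), Gbp1 (0.92), the Golgi matrix gene Golga2 (0.92) and Cyb5rl (0.92). Gbp1 differed from p53 KO by -3.45, and the other 7 of these 8 genes differed from p53 KO by -0.99 to -0.12 on the log2 scale. Over the 5 libraries without the p53Mdm2 KO ones, these genes other than Chchd8 had r from -0.31 (Ptprs) to 0.66 (Mlec). For Odz4 the closest was Ripk1, a kinase gene of cell death signalling, at r = 0.97, then Bcas3 (0.94), Fbxo10 (0.94), Ttc23 (0.94), Iqsec2 (0.94), Tbc1d20 (0.93), the DNA demethylase gene Tet2 (0.93) and Tmem116 (0.93). Ripk1 had 1690.5 and 1562 normalized reads in p53Mdm2 KO, 1813 and 1816 in p53KO Mdm2(C462A) KI, and 1711.5, 1765 and 1828 in p53 KO, a difference from p53 KO of -0.12. Over the same 5 libraries, the 8 genes closest to Odz4 had r from 0.68 (Tmem116) to 0.92 (Fbxo10). No gene was among the 8 closest to both. The 7 points of each r include the libraries the members were chosen on, and the best of 12858 genes is high in any such search.

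**Figure D5:**
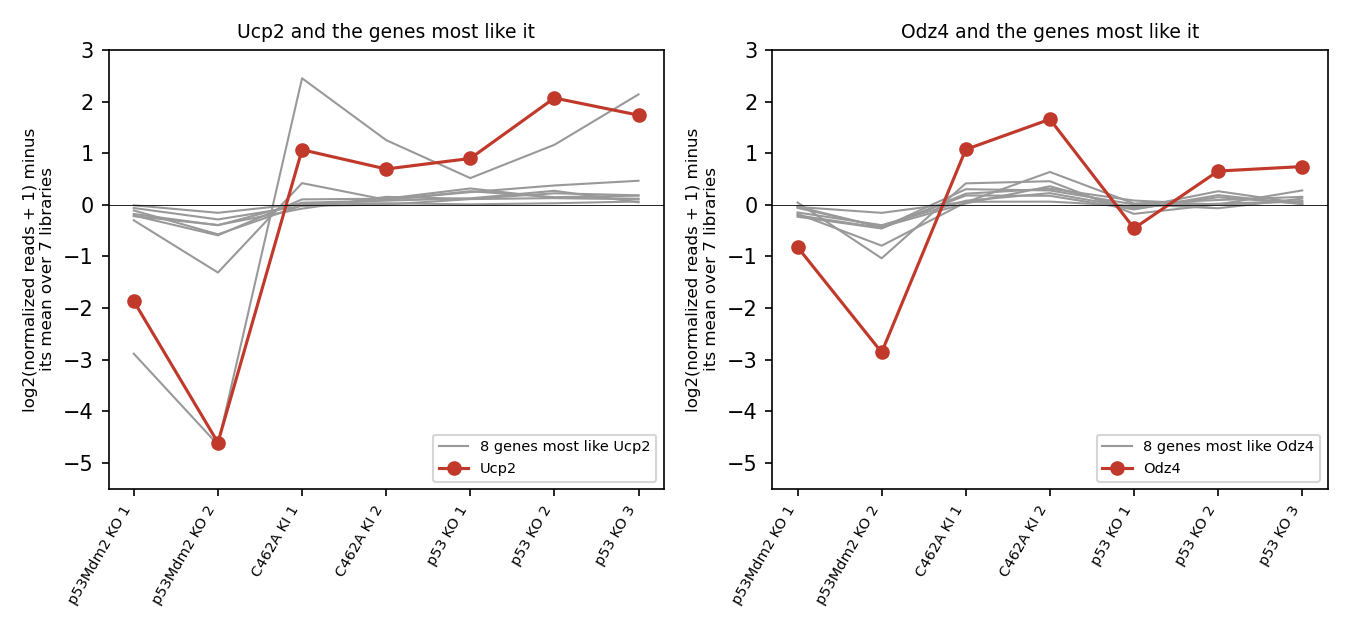
Log2 of normalized reads plus 1, minus its mean over the 7 libraries, for Ucp2 (left) and Odz4 (right) in red and the 8 genes most like each in grey. The grey line with a range as wide as that of Ucp2 is Gbp1, and the other grey lines span a small part of it.

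Over all genes the comparisons made 0 calls in limma. At an unadjusted p under 0.05 there were 507 of 16900 genes for p53Mdm2 KO against p53 KO (3%), 503 for p53Mdm2 KO against p53KO Mdm2(C462A) KI (2.98%) and 1761 for p53KO Mdm2(C462A) KI against p53 KO (10.4%). With 1 library left out these counts ran from 345 to 784, from 61 to 1519 and from 638 to 2293, so the shares at an unadjusted p given beside the gene lists rest strongly on single libraries. The lowest and highest of the second range came without p53Mdm2 KO replicate 2 and without p53KO Mdm2(C462A) KI replicate 1. The lowest of the third came without p53KO Mdm2(C462A) KI replicate 2, and the highest of the first without p53 KO replicate 1. Voom on recovered reads also called 0 in each.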

How the data were processed

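The labels' protocols describe total RNA from fibroblasts read in 50 bp single-end runs. The submitters' processing notes list DESeq 1.14.0, Bowtie2 2.1.0, CASAVA 1.8.2 and the mm9 build, with no role for any. For the counting tool, annotation and strand, nothing is given in the sources used here. The authors deposited 1 variance-stabilized value per gene and library on a log2-like scale, where a gene with no read has 3.36. That value fixes the inverse of the transformation, which gave normalized reads. Dividing by 1 step per library gave whole reads (100% within 0.05 of a whole number, below 2000 reads).

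Groups came from the titles. Limma 3.58.1 (R 4.3.3), chosen for log2 values, was fitted to the deposited values of all 7 libraries with group means and a mean-variance trend, leaving 4 residual degrees of freedom. Genes averaging 10 or more normalized reads (16900) were tested, two-sided, with Benjamini-Hochberg adjustment and a threshold of 0.05. The fit was tested on simulated data. Recovered reads do not make the deposited values counts, so count models were not used, and voom served as an alternative. The log2 differences understate the change of genes with few reads.

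Ucp2, Odz4 and the lists were chosen with earlier results of these data known. Named genes are both families, from each other list the 2 with the smallest p in p53Mdm2 KO against p53 KO and the 2 with the highest mean, the 2 tested neighbours on each side, the 4 largest differences between them, the 8 closest by Pearson r and the 8 widest gaps. Other list genes given in the text, such as Thy1, Col1a2, Postn, Ppargc1a, Emr1 and Olig2, fall outside this rule. They were picked after their values were seen, as were Pparg and Ddit3. Of 29955 rows, 21555 matched a RefSeq gene by symbol or unique synonym. Promoters are from RefSeq (GRCm38.p6). Protein sequences were not used here.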

Additional observations from a re-analysis of the deposited data

How the results depend on the processing

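All 6 differences of Ucp2 and Odz4 kept their sign under every scale tried and without each library in turn. Leaving out 1 library at a time gave -5.59 to -3.33 for Ucp2 in p53Mdm2 KO minus p53 KO, -4.91 to -2.65 for Ucp2 against p53KO Mdm2(C462A) KI, -2.90 to -1.09 for Odz4 in p53Mdm2 KO minus p53 KO and -3.93 to -2.12 for Odz4 against p53KO Mdm2(C462A) KI, the ends set in each case by which p53Mdm2 KO library remained. For p53KO Mdm2(C462A) KI minus p53 KO the ranges were -1.01 to -0.43 for Ucp2 and 0.66 to 1.32 for Odz4. The count of genes with both p53Mdm2 KO libraries below all others was 390 in the main fit, 733 without p53 KO replicate 1 and 1465 without that library and p53KO Mdm2(C462A) KI replicate 2, where fewer libraries have to be undercut. A gap of at least 1 was met by 2 genes, by 5 on log2 of normalized reads plus 1 and by 17 without both libraries. The median of the genes between Odz4 and Ucp2 in p53Mdm2 KO minus p53KO Mdm2(C462A) KI ran from -0.12 to 0.12 with 1 library left out and was -0.12 without p53Mdm2 KO replicate 1. Without both libraries that stand apart, an alternative chosen after seeing the data, 1 gene passed for p53Mdm2 KO minus p53 KO, the interferon-induced gene Ifi202b (limma adjusted p = 0.0315), and the cause was not tested. It had 0 and 1.29 normalized reads in p53Mdm2 KO and 1361 and 1148 in p53 KO replicates 2 and 3, but 3.64 in the left-out p53 KO replicate 1. The other comparisons had 0 calls in all 17 alternatives. Voom gave a median over all genes of 0.12 in p53KO Mdm2(C462A) KI minus p53 KO, against 0.01 on the deposited scale. Same-numbered libraries deviated together with r of at most 0.20 and as low as -0.16 across genes, and the main fit did not pair them. With 2 libraries in a group, deviations from the group mean mirror each other, so this check cannot exclude a batch shared by number. With the replicate number as a block the count of calls stayed 0 in each comparison. Named genes changed sign in 172 of 3360 values compared, none of them called. With 2 libraries in a group and 26 reads in the lowest Ucp2 library, the size of its fall is known only within the range above.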
